A study of Mus musculus with 10 samples.

Results

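The transcription factor genes Myc, Mycn and Mycl1, their shared dimerization partner Max, and the genes Mxi1, Mxd1, Mxd3, Mxd4 and Mnt that encode the opposing partners of Max were followed across the 10 arrays of the series. The members were the probes outside the array's controls whose gene name in the scanner files equals 1 of these 9 symbols, which gave 9 genes among 34821 distinct gene names, and 11 probes among 55681. Mxd1 and Mxd4 had 2 probes each and the other 7 genes had 1. Mycl1 is the array's older name of Mycl.

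Agilent arrays read in 1 color (Cy3) gave the expression of cultured germline stem (GS) cells and of freshly sorted GFRα1+ spermatogonia of the mouse. GS cells are a culture of self-renewing spermatogonia, and those used here were labelled wildtype and C57BL/6, while the study's methods give an intercross of C57BL/6 and ICR mice. They were kept for 3 days without FGF2 and GDNF and then for 24 hr with 100 ng/mL FGF5 (2 samples) or without FGF5 (2 samples), so the culture controls were also cells deprived of both factors. The sorted cells were the GFP+ fraction of testes from 2.5-month-old mice carrying a GFRα1-EGFP knock-in allele, in a WT background (3 samples) or an Fgf5-/- background (3 samples), all labelled C57BL/6. Both sorted groups thus carried the GFP allele, and what the Fgf5 null allele deletes was not given in the sources used here. The samples of an experiment are described as independent. How many mice were pooled in each sorted sample is not given in the sources used here.

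Myc family proteins bind DNA only as dimers with Max, at E-box elements of the sequence CACGTG, and there they activate genes of ribosome biogenesis, nucleotide synthesis, metabolism and the cell cycle. Mxd proteins, Mxi1 and Mnt compete for Max and recruit Sin3 and histone deacetylases, which repress many of the same genes. Max also pairs with Mga in a Polycomb complex (PRC1.6) that keeps germline and meiotic genes silent in stem cells. Myc family activity is a known driver of self-renewal in spermatogonial stem cells. Mxd genes other than Mxd3, which is linked to S phase, are typically expressed as cells leave the cycle.

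All signals below are on the log2 scale after subtraction of the array's 75th percentile, and levels were not compared between genes, since the signal of a probe also depends on its sequence. That percentile ranged from 575.2 to 1091 scanner units over the arrays. The scanner software marked 55.3% to 65.9% of an array's probes as well above background, the term used below. The median SD between samples of a group was 0.13 to 0.21 over the tested probes. All 12 listed markers of undifferentiated spermatogonia were well above background on each of the 10 arrays. The Fgf5 probe was at background on the 3 WT arrays (-5.47, -6.59 and -6.66), and in the arrays labelled Fgf5-/- it was well above background on replicate 1 (-3.42) and not on replicates 2 and 3 (-6.83 and -6.90). On the cultured arrays the probe was well above background, at -2.89 and -3.92 with FGF5 and -2.81 and -2.88 without. Since it was at background in WT cells and the deleted part is not given, it cannot check the genotype of a sorted sample. Fgf5-/- replicate 1 differed from the other sorted arrays in this probe, and the members' differences are also given without that replicate. Bulk arrays cannot tell fewer cells of a type from less RNA per cell.

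Mycn was well detected in all 4 groups. Mycn encodes N-Myc, the family member prominent in embryonic and stem cells, and its probe (A_52_P536494, NM_008709, chr12:12943193-12943252 in mm9, minus strand) was above background on each of the 10 arrays. Its log2 signal was 3.73 and 3.36 with FGF5, 3.80 and 3.81 without FGF5, 3.08, 2.73 and 2.89 in WT, and 2.60, 2.95 and 2.98 in Fgf5-/- cells. The cultured arrays all lay above the sorted arrays, the arrays without FGF5 lay just above those with it, and the WT and Fgf5-/- arrays overlapped.

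Myc was measured clearly in sorted cells only. Myc encodes c-Myc, an immediate target of growth factor signals, and its probe (A_52_P108346, NM_010849, chr15:61821417-61821476 in mm9, plus strand) is printed in 2 spots. In sorted cells its log2 signal was -3.39, -3.12 and -2.78 in WT and -3.13, -3.75 and -3.33 in Fgf5-/-, well above background on all 6 arrays. In culture it was -5.25 and -3.87 with FGF5 and -5.84 and -5.14 without, and of these 4 arrays only replicate 2 with FGF5 was well above background. On that array the spots gave 33.1 and 58.4 scanner units, against 8.32 to 21.9 on the other 3 cultured arrays.

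Mycl1 encodes L-Myc, and its probe (A_55_P1972025, NM_008506, chr4:122679535-122679594 in mm9, plus strand) was well above background on all 10 arrays. Its log2 signal was -0.07 and 0.07 with FGF5, 0.12 and 0.58 without, -1.03, -1.27 and -1.20 in WT, and -0.96, -1.05 and -0.96 in Fgf5-/- cells. The order of the groups by their means was the same as for Mycn in culture, without FGF5 above with FGF5, and the WT and Fgf5-/- arrays overlapped below both.

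Max encodes the partner on which the whole network depends, and its probe (A_55_P1962801, NM_008558, chr12:78038272-78038331 in mm9, minus strand) gave 2.49 and 2.51 with FGF5 and 2.51 and 2.61 without. In WT cells it gave 2.99, 3.14 and 3.25, and in Fgf5-/- cells 2.68, 2.87 and 2.84. The groups fell in the order WT, Fgf5-/-, without FGF5 and with FGF5, and only the last neighbours in this order overlapped.

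Among the antagonists, Mnt and Mxd3 gave plain patterns. Mnt, the antagonist that is expressed in both cycling and resting cells (A_52_P477431, NM_010813, chr11:74658915-74658974 in mm9, plus strand), gave 3.52 and 3.11 with FGF5, 3.71 and 3.34 without, 4.11, 3.83 and 3.91 in WT, and 3.81, 4.0 and 4.01 in Fgf5-/- cells. Mxd3, the Mxd gene linked to S phase (A_52_P190647, NM_016662, chr13:55427000-55427059 in mm9, minus strand), gave -3.33 and -3.47 with FGF5, -3.71 and -3.68 without, -0.83, -0.83 and -0.68 in WT, and -0.90, -0.87 and -0.77 in Fgf5-/- cells. The cultured arrays of both probes lay below all sorted arrays, by far the more so for Mxd3.

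Mxi1 encodes an Mxd protein that antagonizes Myc, and its probe (A_55_P1987096, NM_001008542, chr19:53450238-53450297 in mm9, plus strand) was not well above background on 9 of the 10 arrays. The exception was replicate 2 without FGF5, at -4.62, and the other cultured arrays lay between -5.70 and -5.30 and the sorted arrays between -7.48 and -6.91. Mxi1 was not tested in any comparison and is given no fold.

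**Figure D1:**
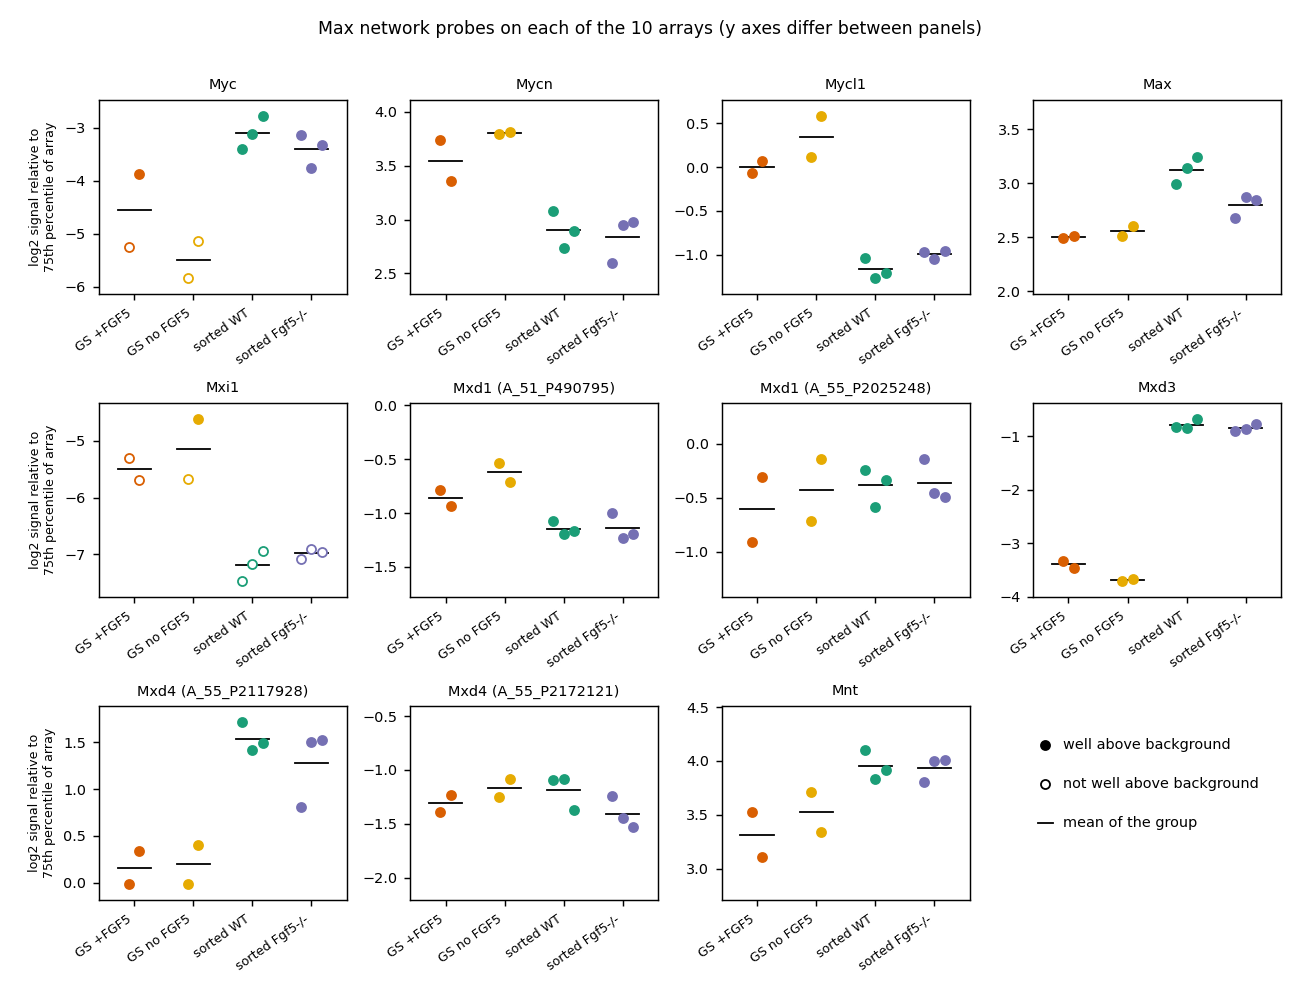
The 11 probes of the 9 genes, 1 panel each, with the log2 signal after subtraction of the array's 75th percentile on the y axis and the 4 groups on the x axis. Points are single arrays, open where the probe was not well above background, and lines are group means. Mxd3 lay between -3.71 and -3.33 in culture and between -0.90 and -0.68 in sorted cells, whereas Myc was well above background on 1 of the 4 cultured arrays.

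The 2 probes of Mxd4 and the 2 probes of Mxd1 did not tell the same story. Mxd4 encodes an Mxd protein known from resting and differentiating cells, and its probes A_55_P2117928 (chr5:34519323-34519382) and A_55_P2172121 (chr5:34519276-34519335, both NM_010753, mm9, minus strand) overlap on the transcript by 13 bases. The last 30 bases of the former and the first 30 of the latter are shown because they place the probes next to each other, with the shared bases in capitals:
A_55_P2117928: atcattccagaagtattAAATATCATTTCT
A_55_P2172121: AAATATCATTTCTacaaatctcggcaggat
No annotation of mm9 was used here, so the exon or UTR of each probe is not given.

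Probe A_55_P2117928 of Mxd4 gave -0.01 and 0.34 with FGF5, -0.01 and 0.40 without, 1.71, 1.41 and 1.49 in WT, and 0.81, 1.5 and 1.53 in Fgf5-/- cells. Its cultured arrays all lay below its sorted arrays, the lowest of which was Fgf5-/- replicate 1. Probe A_55_P2172121 gave -1.39 and -1.23 with FGF5, -1.25 and -1.09 without, -1.09, -1.09 and -1.38 in WT, and -1.25, -1.44 and -1.53 in Fgf5-/- cells, and here cultured and sorted arrays overlapped. The size of the gap between the probes on an array depends on the probes themselves, and only its change between arrays was compared. The former minus the latter was 1.24 to 1.57 on the log2 scale in culture (mean 1.42 ± 0.14, SD, n = 4) and 2.05 to 3.06 in sorted cells (mean 2.70 ± 0.37, SD, n = 6). The gap was thus 1.28 smaller in culture (two-sided exact permutation test with 210 splits, p = 0.00476, the smallest this design can give; 0.00952 after Benjamini-Hochberg adjustment over the 2 genes with 2 probes).

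Mxd1 encodes Mad1, the founding antagonist of Myc, and its probes A_51_P490795 (chr6:86597190-86597249) and A_55_P2025248 (chr6:86599053-86599112, both NM_010751, mm9, minus strand) lie 1803 bases apart on the genome. The former gave -0.79 and -0.93 with FGF5, -0.53 and -0.71 without, and -1.23 to -1.0 over the 6 sorted arrays, all of them below the cultured arrays. The latter gave -0.91 and -0.31 with FGF5, -0.72 and -0.14 without, and -0.58 to -0.14 over the sorted arrays, with all 4 groups overlapping. The former minus the latter was -0.22 ± 0.44 in culture (SD, n = 4) and -0.77 ± 0.10 in sorted cells (SD, n = 6), a difference of 0.54 (two-sided exact permutation test with 210 splits, p = 0.00952, and 0.00952 after adjustment over the 2 genes). In culture this quantity split by sample number, at 0.12 and 0.19 in the replicates 1 and -0.63 and -0.58 in the replicates 2. The sorted arrays lay between -0.86 and -0.61, so that only the replicates 1 lay well clear of them. The test treats the cultured arrays as unrelated to each other, and the labels do not say whether equal numbers share a culture. In this test and that of Mxd4, material, factor withdrawal, slide and scan cannot be told apart.

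**Figure D2:**
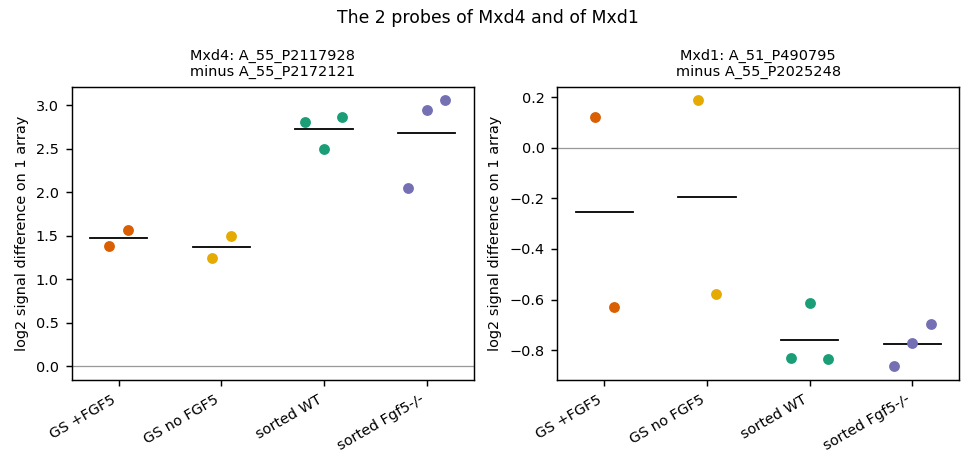
The signal of 1 probe minus that of the other probe of the same gene on each array, as a log2 difference on the y axis, for Mxd4 (left) and Mxd1 (right) in the 4 groups. Points are arrays and lines are group means. For Mxd4 the 4 cultured arrays lay between 1.24 and 1.57, below all 6 sorted arrays at 2.05 to 3.06.

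The first comparison of the study asked how FGF5 changes gene expression in GS cells. In it, 0 of the 9 probes tested, which cover 7 of the 9 genes, had an adjusted p under 0.05 in limma (2 against 2 arrays, two-sided, adjusted over all 34612 tested probes), and over all probes the share was 0%, with 0 calls. With 2 against 2 arrays and no call among all probes, this count says nothing about whether the members changed. At an unadjusted p under 0.05 there were 0 of the 9 probes, against 2.55% of all tested probes. Mycn differed by -0.26 on the log2 scale with FGF5 (SE 0.20, 95% interval -0.78 to 0.26) and Mycl1 by -0.35 (SE 0.22, -0.93 to 0.23), both with an adjusted p of 0.9999 in limma. With 1 array left out, the difference ranged from -0.45 to -0.07 for Mycn, the smaller without replicate 2 with FGF5, and from -0.58 to -0.12 for Mycl1, the smaller without replicate 2 without FGF5. Max differed by -0.05 (SE 0.16, -0.47 to 0.36). All 3 intervals include 0, and each reaches both falls larger than the measured one and rises.

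Among the antagonists in the FGF5 comparison, Mxd3 differed by 0.29 (SE 0.16, 95% interval -0.13 to 0.72), the 1 positive difference among the 9 probes. Mnt differed by -0.21 (-0.83 to 0.42), the Mxd1 probes by -0.24 and -0.18, and the Mxd4 probes by -0.04 and -0.14. The arrays with and without FGF5 did not overlap for 4 of the 9 probes, against 22.7% of all tested probes, with Mxd3 higher with FGF5 (8.18% of all probes were higher) and Mycn, Mycl1 and Mxd1 A_51_P490795 lower (14.5% of all probes were lower). The median over the 7 genes, each read from its brightest probe, was -0.18, beside -0.03 over all tested probes.

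Myc was not tested in the FGF5 comparison, since 1 of its 4 arrays there, replicate 2 with FGF5, was clear of background. Against the background level of the arrays without FGF5 its mean with FGF5 was 1.26-fold higher. This is no lower bound, since replicate 1 with FGF5 was itself at background and entered the mean as measured. The fold rested on replicate 2 with FGF5. From that array alone it was 2.03-fold, and without that array both conditions were at background and no fold can be given.

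The second comparison asked how the loss of Fgf5 in the mouse changes gene expression in GFRα1+ cells. In it, 0 of the 10 probes tested, which cover 8 of the 9 genes, had an adjusted p under 0.05 in limma (3 against 3 arrays, two-sided, adjusted over all 30285 tested probes), again with 0% of all probes called. At an unadjusted p under 0.05 there was 1 of the 10, Max, against 6.79% of all tested probes. Max differed by -0.33 in the Fgf5-/- cells (SE 0.12, 95% interval -0.61 to -0.05, unadjusted p = 0.0292 and adjusted p = 0.728 in limma) and was lower on each Fgf5-/- array than on any WT array. It was the 1 probe of the 10 whose arrays did not overlap, against 16.2% of all tested probes (9.2% lower in Fgf5-/-). Without Fgf5-/- replicate 1 the difference was -0.27 (adjusted p = 0.547 in limma).

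Myc differed by -0.30 in the Fgf5-/- cells (SE 0.22, 95% interval -0.83 to 0.23) and by -0.44 without Fgf5-/- replicate 1 (adjusted p = 0.621 in limma). Without other arrays it was smaller, at -0.13 without Fgf5-/- replicate 2 and -0.14 without WT replicate 3. Mycn differed by -0.06 (SE 0.15, -0.43 to 0.31) and by 0.06 without that replicate, and Mycl1 by 0.18 (SE 0.11, -0.08 to 0.44) and 0.16. All 3 intervals include 0, and that of Myc is the widest.

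Of the antagonists in the Fgf5-/- comparison, Mnt differed by -0.01 (SE 0.12, -0.31 to 0.29) and Mxd3 by -0.07 (SE 0.10, -0.32 to 0.18), and without Fgf5-/- replicate 1 they differed by 0.06 and -0.04. The Mxd1 probes differed by 0.0048 and 0.02, and by -0.07 and -0.09 without Fgf5-/- replicate 1. The Mxd4 probes differed by -0.26 and -0.22, and without Fgf5-/- replicate 1 by -0.02 and -0.30. The signs for Mycn, Mnt and both Mxd1 probes turned under other scalings or without that replicate. The median over the 8 genes was -0.06, beside -0.03 over all tested probes.

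**Figure D3:**
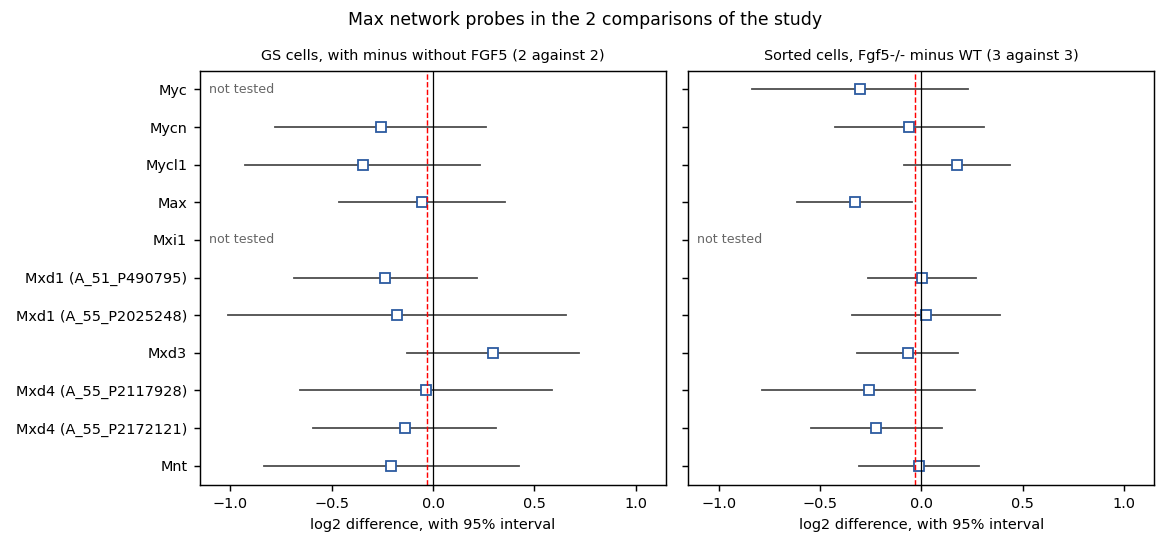
Log2 differences of the 11 probes with 95% intervals from limma, for GS cells with minus without FGF5 (left, 2 against 2 arrays) and for sorted cells, Fgf5-/- minus WT (right, 3 against 3 arrays). Open squares did not pass an adjusted p of 0.05, the dashed line is the median of all tested probes, and untested probes are marked. On the right, the interval for Max, -0.61 to -0.05, was the only 1 of the 10 that did not include 0.

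Cultured and sorted cells differed most. Cells in culture, all deprived of FGF2 and GDNF, had higher Mycn and Mycl1 and lower Max, Mnt and Mxd3 than sorted GFRα1+ cells. In the fit of all 10 arrays (4 cultured against 6 sorted), 8 of the 10 member probes tested had an adjusted p under 0.05 in limma, 3 higher and 5 lower in culture, and 67.7% of all 35826 tested probes did, 41.9% higher and 25.7% lower. Myc, 1 of the 5 lower, entered the test only through the sorted arrays, where it was high, so its call is not counted as a result. Of the 9 member probes that were above background on every array, 7 were called when such probes were tested alone, as were 17966 of all 27224 such probes. The arrays of the same 8 probes, Myc among them, did not overlap, against 55.6% of all tested probes. Cultured and sorted cells were on separate slides with separate scans, and differed also in strain background as the methods give it. The cultured cells had been kept for 3 days without FGF2 and GDNF, and 2 of the 4 samples then got no FGF5. Material, factor withdrawal, slide and scan thus cannot be told apart.

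The levels of all probes were shifted in this comparison, with a median log2 difference of 0.26 over the tested probes, and another scaling moved this median between 0.14 and 0.41. Mycn was 1.74-fold higher in culture (0.80 on the log2 scale, SE 0.13, adjusted p = 0.000756 in limma), which is 0.54 above the median of all probes and 0.45 to 0.85 above it over the 5 scalings compared. Mycl1 was 2.38-fold higher (1.25, SE 0.12, adjusted p = 4.17e-05 in limma), or 0.99 above the median. Both were higher on all 4 cultured arrays than on any sorted array.

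Max was 1.35-fold lower in culture (-0.43, SE 0.10, adjusted p = 0.00385 in limma), 0.69 below the median of all probes and 0.39 to 0.71 below it over the scalings. The difference narrowed to -0.25 under quantile normalization (adjusted p = 0.036 in limma). It was -0.57 for GS cells without FGF5 against WT cells and -0.62 for those with FGF5.

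Myc was at background on 3 of the 4 cultured arrays and above it on all 6 sorted arrays. A fold over the background level is given in place of a test. Under the main scaling, against that level on the arrays without FGF5, the mean of the WT arrays was 3.46-fold higher. That of the Fgf5-/- arrays was 2.81-fold higher. These folds are no strict lower bounds, since the groups were on separate slides and the level depends on the scaling. They do not cover the arrays with FGF5. The 1 cultured array above background, replicate 2 with FGF5 at -3.87, lay close below the lowest sorted array, Fgf5-/- replicate 2 at -3.75. The measured log2 difference between all cultured and all sorted arrays was -1.77, and -0.35 with normexp background correction on the median spot signals of all 10 arrays, so that its size is poorly known.

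Mxd3 showed the largest difference of the 10 probes, 6.64-fold lower in culture (-2.73, SE 0.09, adjusted p = 3.24e-07 in limma), and its probe was well above background on all 10 arrays. The difference lay between -3.05 under quantile normalization and -1.80 with normexp. On the cultured arrays the probe gave only 44.9 to 58.9 scanner units, so the size of its fold depends on the background correction. Mnt was 1.44-fold lower (-0.52, SE 0.13, adjusted p = 0.00711 in limma), though it missed the threshold under quantile normalization (-0.34, adjusted p = 0.0506 in limma) and for GS cells without FGF5 against WT (-0.43, adjusted p = 0.0808 in limma).

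Mxd4 was 2.34-fold lower in culture by probe A_55_P2117928 (-1.23, SE 0.18, adjusted p = 0.000426 in limma) and differed by 0.06 by probe A_55_P2172121 (SE 0.11, 95% interval -0.20 to 0.31, adjusted p = 0.668 in limma), or by 0.10 without Fgf5-/- replicate 1. Mxd1 was 1.32-fold higher by probe A_51_P490795 (0.40, SE 0.10, adjusted p = 0.00618 in limma), which is 0.14 above the median of all probes and 0.05 to 0.17 above it over the scalings. It missed the threshold for GS cells with FGF5 against WT (0.28, adjusted p = 0.115 in limma). By probe A_55_P2025248 it differed by -0.14 (SE 0.18, 95% interval -0.54 to 0.26, adjusted p = 0.488 in limma), or by -0.09 without Fgf5-/- replicate 1.

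**Figure D4:**
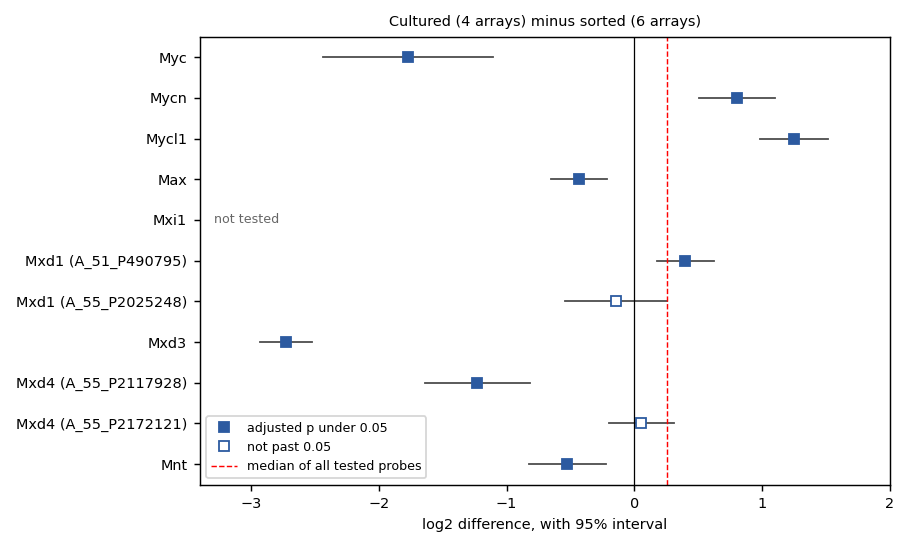
Log2 differences of the 11 probes, cultured (4 arrays) minus sorted (6 arrays), with 95% intervals from limma. Filled squares passed an adjusted p of 0.05 and the dashed line is the median of all tested probes, 0.26. Mycn and Mycl1 lay to the right of that line and Max, Mxd3, Mnt and 1 probe of Mxd4 to the left of 0. Myc also lay to the left of 0, but it passed the filter only through the sorted arrays and its call is not counted.

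Marker genes of germ cells and of other cells also differed between the cultured and sorted arrays, and several lists were split. The counts in this and the next paragraph are of markers called at an adjusted p under 0.05 in limma. They stand beside 41.9% of all tested probes called higher and 25.7% called lower. Of the 12 markers of undifferentiated spermatogonia, 1 was called higher and 7 lower in culture, with a median of -0.91, and their summed signal, in multiples of the array's 75th percentile, was 163 to 171 in culture and 187 to 218 in sorted cells. Of 7 spermatocyte markers 2 were higher and 4 lower, with sums of 73.6 to 92.8 and 51.7 to 67.6, and of 7 markers of differentiating spermatogonia 2 were higher and 2 lower (124 to 167 and 147 to 178). Of 5 endothelial markers 3 were higher and 2 lower, with sums of 11.5 to 20.8 in culture and 2.74 to 4.97 in sorted cells.

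Of the 10 tested of 11 peritubular and fibroblast markers 6 were higher and 2 lower (7.67 to 17.3 and 5.57 to 7.01), of the 6 tested of 7 macrophage markers 5 were higher and 1 lower (4.10 to 4.99 and 1.61 to 2.86), and both tested of 5 Leydig cell markers were higher (4.99 to 6.65 and 0.42 to 1.96). Of the 7 tested of 8 Sertoli markers 1 was higher and 5 lower (2.29 to 2.94 and 6.24 to 10.71), and of the 6 tested of 7 spermatid markers 0 were higher and 5 lower (1.69 to 2.23 and 5.42 to 17.2). In the FGF5 comparison only 5 Sertoli and 4 spermatid markers passed the filter. The rest entered through the sorted arrays only, so a call of theirs as lower is no result. Markers of other lists that passed through 1 side only have the same limit. Tek of endothelium, Gdnf of Sertoli cells, C1qa of macrophages and Lum of the peritubular and fibroblast list were not well above background on any cultured array. Amh of Sertoli cells, Acrv1 of spermatids and Cyp11a1 and Lhcgr of Leydig cells were not on any of the 10 arrays. The part of these cells in the differences of the Max network was not tested.

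The genomic windows upstream of the members were searched for the E-box CACGTG, which reads the same on both strands. A match is a match of letters, not a measured site. The RefSeq table of promoters in GRCm38.p6, with 250 bases before and 50 after each start, held 8 of the 9 genes in 10 windows, and Myc was not matched. The motif was found for Max, Mnt and Mxd4, in 3 of the 10 windows, against 7.15% of all 32851 windows. By gene this was 3 of 8, against 8.09% of all 27025 genes with a window. It started at base 248 of 300 for Max, at base 128 for Mnt and at base 32 for Mxd4. Max and Mnt were lower in culture, as was Mxd4 by 1 of its probes but not by the other. Mxd3, with the largest difference, held no such motif, and Myc had no window. Whether the motif bears on these differences was not tested for any of the 3 windows. They are shown with the E-box in capitals, for Max at chr12:76962199-76962498 (minus strand), Mnt at chr11:74830674-74830973 (plus strand) and Mxd4 at chr5:34187661-34187960 (minus strand):
Max: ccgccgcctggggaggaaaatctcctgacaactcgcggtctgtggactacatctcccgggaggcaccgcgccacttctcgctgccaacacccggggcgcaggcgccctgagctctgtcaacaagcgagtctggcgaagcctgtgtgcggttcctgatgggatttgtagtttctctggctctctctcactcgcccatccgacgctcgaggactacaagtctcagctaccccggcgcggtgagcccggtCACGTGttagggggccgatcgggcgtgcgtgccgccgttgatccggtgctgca
Mnt: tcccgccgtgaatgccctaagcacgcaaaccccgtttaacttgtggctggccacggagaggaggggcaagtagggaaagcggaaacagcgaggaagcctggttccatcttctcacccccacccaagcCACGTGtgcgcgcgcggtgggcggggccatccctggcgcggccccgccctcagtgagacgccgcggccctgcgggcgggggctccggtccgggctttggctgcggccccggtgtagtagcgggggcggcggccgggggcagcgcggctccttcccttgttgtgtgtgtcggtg
Mxd4: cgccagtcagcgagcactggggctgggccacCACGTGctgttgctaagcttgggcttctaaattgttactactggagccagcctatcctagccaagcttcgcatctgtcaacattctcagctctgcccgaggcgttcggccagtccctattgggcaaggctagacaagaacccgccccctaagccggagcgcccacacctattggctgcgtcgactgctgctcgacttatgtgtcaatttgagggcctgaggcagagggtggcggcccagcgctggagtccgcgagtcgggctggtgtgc

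The partners through which the network acts were read from fixed lists, each gene from its brightest probe. Of their 123 distinct tested genes, 0 passed an adjusted p of 0.05 and 1 an unadjusted p of 0.05 in the FGF5 comparison in limma, and of 122 in the Fgf5-/- comparison 0 and 8 did. The shares of all tested probes at an unadjusted p under 0.05 were 2.55% and 6.79%. Between culture and sorted cells, the counts of each list below are of genes called higher or lower. They stand beside 41.9% of all tested probes called higher and 25.7% called lower. Mga and the Mlx arm, a parallel branch of the network that senses glucose products, had 4 genes, of which 0 passed the test between culture and sorted cells. Of the 13 genes of the PRC1.6 complex, 2 were higher and 8 lower in culture, with the ubiquitin ligase gene Rnf2 at -1.19 and Hdac1 at -0.93 as the lowest and Hdac2 at 0.45 and E2f6 at 0.41 as the highest. Mga itself differed by -0.20 (adjusted p = 0.16 in limma). The median of the PRC1.6 list was -0.32, beside 0.26 over all tested probes.

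Of the 10 corepressor genes of the Mxd proteins, 3 were higher and 4 lower in culture. The deacetylase complex genes Sap18 (1.55) and Sap30 (1.03) rose while the corepressor genes Ncor1 (-1.62) and Sin3b (-0.94) fell, and the median was -0.30. Of 14 tested Myc cofactor genes, 1 was higher (Bin1, an antagonist of Myc, 0.45) and 8 were lower, led by the helicase gene Ruvbl2 at -0.71 and the acetyltransferase gene Kat2a at -0.59. Of 12 genes for the turnover of Myc proteins, 0 were higher and 4 lower, among them the kinase gene Aurka (-0.91) and the ubiquitin ligase gene Fbxw7 (-0.70). The medians of these lists were -0.26 and -0.17, beside 0.26 over all tested probes.

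Known targets of Myc went both ways between culture and sorted cells, where the median of all tested probes was 0.26 (0.14 to 0.41 over the scalings) and 41.9% of them were called higher and 25.7% lower. The counts of targets below are likewise of genes called. Of 25 ribosome biogenesis genes, 4 were higher and 8 lower in culture (median -0.10), from Polr1b, a subunit of RNA polymerase I, at -2.0 and the nucleolar gene Nolc1 at -0.89 to Pes1 at 0.67 and Dkc1 at 1.04. Of 18 genes of nucleotide and polyamine synthesis, 4 were higher and 5 lower (median -0.03), with Mthfd1 at -0.82 and Odc1 at -0.70 at the low end and Srm at 0.73 and Prps2 at 2.06 at the high end. Odc1 and Srm catalyze successive steps of polyamine synthesis, and they differed in opposite directions. Of 19 genes of translation, metabolism and the cell cycle, 7 were higher and 7 lower (median -0.06), from the phosphatase gene Cdc25a at -2.86 and the cyclin gene Ccnd2 at -2.65 to Tert at 0.57 and the lactate dehydrogenase gene Ldha at 1.24. Of 12 genes known as repressed by Myc, 3 were higher and 4 lower (median 0.15), with Ndrg1 and Gadd45b at -1.14 each, Ndrg2 at 1.66 and Thbs1 at 2.06. Thbs1 was well above background on 2 of the 6 sorted arrays.

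In the FGF5 comparison the target lists had medians of -0.02, -0.01, 0.05 and 0.04 in the same order, close to the -0.03 over all tested probes. Ccnd2, which drives the entry into the cell cycle, had the highest value at 2.0 (SE 0.59, unadjusted p = 0.0215 and adjusted p = 0.9999 in limma), followed by the hexokinase gene Hk2 at 0.55. The lowest values were -0.41 for the glucose transporter gene Slc2a1 and -0.40 each for Prps2 and Cdkn1b. In the Fgf5-/- comparison the medians were -0.10, -0.12, -0.14 and -0.08, beside -0.03. Cdkn1a, the CDK inhibitor gene that Myc is known to repress, had the lowest value at -0.78 (SE 0.12, unadjusted p = 0.000477 and adjusted p = 0.728 in limma) and was lower on each Fgf5-/- array than on any WT array. Gas1 followed at -0.48, and the highest value in these lists was 0.26 for Tert.

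**Figure D5:**
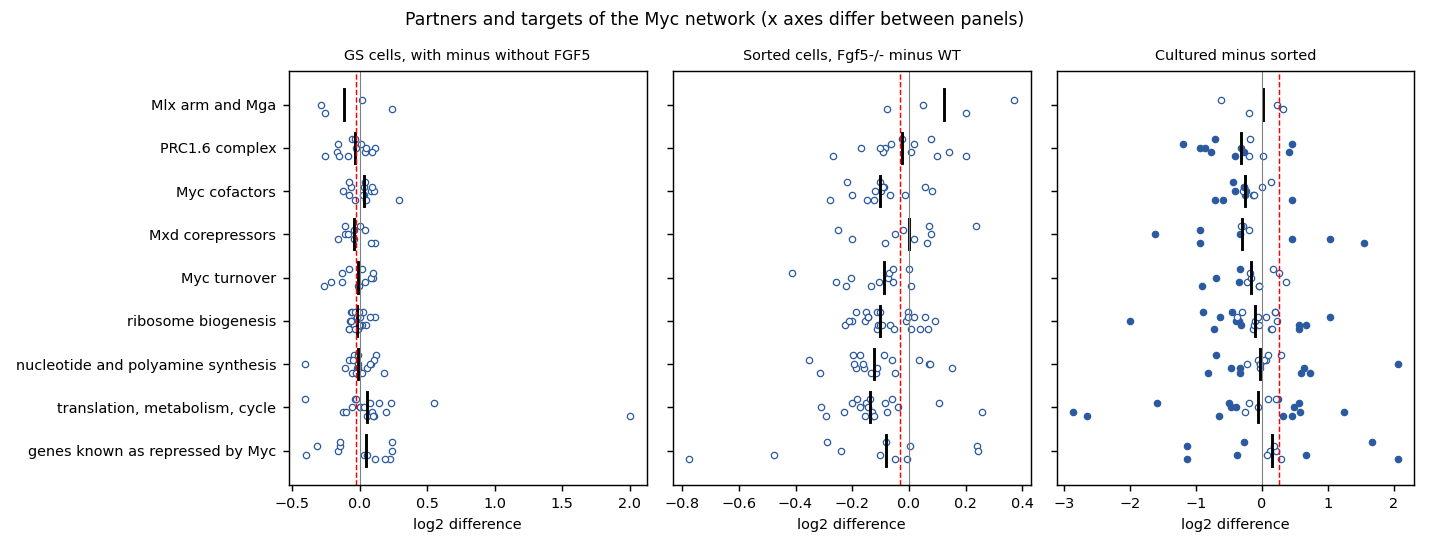
Log2 differences of the tested genes of 9 lists of partners and targets, 1 point a gene read from its brightest probe, in the FGF5 comparison (left), the Fgf5-/- comparison (middle) and cultured minus sorted (right). Filled points passed an adjusted p of 0.05 in limma, short black bars are list medians and the dashed line is the median of all tested probes. Points were filled only on the right, where the PRC1.6 complex had a median of -0.32 with 8 of 13 genes called lower.

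Genes most like Myc and Mycn were sought among 27224 probes that were above background throughout the series, by the root mean square difference of centered log2 values. For Myc, itself partly at background in culture, they were Plagl1 (0.20), Dusp5 (0.21) and Parm1 (0.23), where Myc varied about its own mean by 1.01. The mean log2 signals of Dusp5 in the groups with FGF5, without FGF5, WT and Fgf5-/- were -2.17, -3.37, -1.06 and -1.14, and those of Plagl1 were -0.53, -1.17, 1.04 and 0.65. For Mycn they were 4930480E11Rik (0.0853), Gm9258 (0.0871) and Bmx (0.0873), where Mycn varied by 0.43. The 4 cultured arrays share a slide and a scan, as do the 6 sorted arrays, and these values are a description over 10 arrays.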

How the data were processed

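Total RNA of 10 samples was labelled with Cy3 and hybridized to 1 array each. The authors deposited scanner output with the background-subtracted intensity of each spot on a linear scale (Agilent Feature Extraction 10.7.1.1 per the file headers, 10.7.3.1 in the submitters' processing notes), and a table of log2 values that equals the recomputed values plus 1 constant per array. Signals under 1.0 were to be set to 1.0 (0 were), uneven and outlier spots were dropped, repeated spots were combined by their mean log2 signal, and each array was scaled to the 75th percentile of its 59305 non-control spots. The test took probes that exceeded background throughout at least 1 group and ran in R 4.3.3 with limma 3.58.1 (lmFit, eBayes, two-sided, Benjamini-Hochberg over all tested probes, threshold 0.05). Each experiment was fitted alone, and cultured against sorted in 1 fit of the 4 groups. The fits were tested on simulated data. Where a probe was at background on all arrays of a group, its fold is taken against a background level. This level is the mean over those arrays of the higher of the lowest signal among probes well above background and the probe's own signal. Such a fold depends on the scaling and is no strict lower bound. Probe names and mm9 positions are those of the files, and RefSeq sequences are of GRCm38.p6. Precision is limited by the number of arrays.

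All probes of the 9 genes are named, in each list at most the 2 highest and 2 lowest genes, and for Myc and Mycn the 3 nearest genes. The members and lists were chosen with earlier results of these data known. Alternatives were 5 scalings or background corrections including the main one, outlier spots kept, other filters on dim probes, an intensity trend, the sample number as a block, all arrays in 1 fit, other group pairs, and each array left out.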

Additional observations from a re-analysis of the deposited data

How the results depend on the processing

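Between cultured and sorted cells 7 to 9 member probes were called over the alternatives run. This range holds Myc wherever it was tested, though its call is not counted as a result. Among probes above background on every array, which leave Myc out, the count was 7 of 9, beside 17966 of all 27224. Without a filter on dim probes it was 9 of 11, beside 25331 of all 55681. In the FGF5 and the Fgf5-/- comparison 0 were called under each, which is no sign of stability where few or no probes of the whole array are called. Over all probes, 1 fit of all 10 arrays called 4 in the FGF5 comparison, and leaving out 1 array gave 0 to 6 calls in the Fgf5-/- comparison, the 6 without Fgf5-/- replicate 1, 5 without Fgf5-/- replicate 3, and 1 each without WT replicate 2 and WT replicate 3. With the replicate number as a block 0 probes were called in either comparison, 0 of them members, and 2481 and 1561 had an unadjusted p under 0.05. Deviations of equally numbered samples correlated across probes at 0.636 in culture and at -0.42, -0.16 and -0.15 in sorted cells, and the labels do not say that a number is shared.

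Some small differences changed sign. In the Fgf5-/- comparison this was so under quantile normalization for Mycn (0.016), Mxd1 A_51_P490795 (-0.020) and Mnt (0.089), with the percentile over probes well above background for Mycn (0.00051) and Mnt (0.049), with normexp for Mxd1 A_51_P490795 (-0.067), Mxd1 A_55_P2025248 (-0.071) and Mnt (0.0087), and in the authors' table for Mxd1 A_51_P490795 (-0.0065). Between cultured and sorted cells it was so for Mxd4 A_55_P2172121 under quantile normalization (-0.079) and with FGF5 against WT (-0.12), and for Mxd1 A_55_P2025248 with the percentile over probes well above background (0.0070). With 1 array left out, the FGF5 difference ranged from -0.48 to 0.12 for Mxd1 A_55_P2025248, from -0.24 to 0.17 for Mxd4 A_55_P2117928 and from -0.41 to 0.00030 for Mnt. The Fgf5-/- difference ranged from -0.14 to 0.062 for Mycn, from -0.065 to 0.050 for Mxd1 A_51_P490795, from -0.092 to 0.095 for Mxd1 A_55_P2025248 and from -0.071 to 0.067 for Mnt, and the cultured minus sorted difference from -0.29 to 0.0082 for Mxd1 A_55_P2025248. None of these passed the threshold under any alternative run, and the cause was not tested. Signal near background limits the values of Myc in culture and of Mxi1, and the low signal of Mxd3 in culture limits the size of its difference.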
